A study of Homo sapiens with 16 samples.

Results

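The T288P allele of PCSK5 was compared with the wildtype (WT) allele across all genes of the transcriptome. The comparison rests on 8 of the 16 libraries of the study, 4 T288P wells and 4 WT wells, chosen by the allele and treatment given in the sample names. The cells were MCF10DCIS.com, a human breast line derived from MCF10A that forms lesions resembling ductal carcinoma in situ. The other 8 libraries hold 4 wells of the T288P line grown with recombinant GDF11 and 4 wells of a line carrying the M452I allele.

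All groups descended from 1 clone in which Cas9 had disrupted PCSK5 with a guide against exon 4, and that clone had been recovered in GDF11. A guide-resistant PCSK5 allele with a V5 tag was then introduced behind a tetracycline-regulated promoter, and 1 line, selected as a polyclonal pool, stands for each allele. T288P wells and WT wells were seeded at 5000 cells per well and grown in 3 dimensions on matrigel without added GDF11. Their medium held 2% matrigel, EGF at 5 ng/ml and, from day 4, doxycycline at 1 µg/ml, and they were collected on day 8. T288P+GDF11 wells received the same and 250 ng/ml GDF11 throughout, and M452I wells were treated as WT wells were. The wells are replicate cultures of 1 line per allele, so p-values measure only the spread between wells, and a difference between alleles cannot be told apart from a difference between the lines. In bulk RNA, fewer cells with a transcript and less of it per cell cannot be told apart either.

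PCSK5 is a proprotein convertase, an enzyme that cleaves the precursors of secreted proteins at basic residues, and the GDF11 precursor is one of its substrates. Once cleaved, GDF11 binds activin-type receptors as other ligands of the TGF-beta superfamily do, and signals through SMAD2 and SMAD3. In breast epithelium, signals of this family regulate growth, junctions, matrix genes and differentiation.

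The 7 genes called between the alleles included PADI2 and PADI1, neighbours on chromosome 1, and TGFBI, a known target of TGF-beta signals. Their promoters are shown because the PADI genes differed in the same direction and TGFBI belonged to the list of SMAD2/3 targets. Each stretch runs from 250 bases before to 50 bases after the annotated start, 5′ to 3′ on the strand of the gene, from RefSeq on GRCh38.p14. The PADI2 stretch lies on the minus strand at chr1:17119402-17119701, the PADI1 stretch on the plus strand at chr1:17204878-17205177, and the TGFBI stretch on the plus strand at chr5:136028738-136029037. Capitals mark CAGAC, the box that SMAD3 and SMAD4 bind.
PADI2: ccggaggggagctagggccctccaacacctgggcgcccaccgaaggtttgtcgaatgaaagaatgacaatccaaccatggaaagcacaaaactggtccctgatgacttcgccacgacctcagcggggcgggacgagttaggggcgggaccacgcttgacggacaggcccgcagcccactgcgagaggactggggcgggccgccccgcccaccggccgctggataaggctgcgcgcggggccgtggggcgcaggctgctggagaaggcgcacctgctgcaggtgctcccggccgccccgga
PADI1: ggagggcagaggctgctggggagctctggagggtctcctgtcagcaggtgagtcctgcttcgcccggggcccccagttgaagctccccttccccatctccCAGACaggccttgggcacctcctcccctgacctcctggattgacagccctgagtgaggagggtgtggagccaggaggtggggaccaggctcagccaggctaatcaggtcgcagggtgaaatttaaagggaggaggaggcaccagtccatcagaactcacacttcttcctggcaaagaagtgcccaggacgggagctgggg
TGFBI: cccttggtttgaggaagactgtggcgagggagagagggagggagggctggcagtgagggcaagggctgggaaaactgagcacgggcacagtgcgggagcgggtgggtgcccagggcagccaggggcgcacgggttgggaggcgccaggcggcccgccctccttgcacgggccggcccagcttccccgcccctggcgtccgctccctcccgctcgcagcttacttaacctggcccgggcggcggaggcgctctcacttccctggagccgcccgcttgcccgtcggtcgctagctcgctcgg

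A promoter of this kind was found for 6 of the 7 called genes (PADI2, PADI1, MYH14, LXN, IL1B and TGFBI). CAGAC, searched on both strands, occurred in 1 of the 6, at position -150 of PADI1. The same motif was present in 45.3% of 35116 promoters of the same length. TGANTCA, the AP-1 motif, occurred in 0 of the 6 and in 7.71% of all promoters, so no match of one motif overlapped a match of the other. A match is a string of letters and not a measured site.

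The T288P libraries held 28.45 to 44.82 M counts and the WT libraries 32.75 to 44.32 M counts. At least 1 count was recorded for 22658 to 24644 genes in T288P wells and for 22490 to 25335 genes in WT wells. T288P replicate 1 stood apart from the other T288P wells. It scored -43.0 on the first principal component of the 16 libraries, against 2.14 to 8.81 in T288P replicates 2 to 4 and -39.6 to -5.04 in WT wells. Its 46 listed ribosomal protein genes took 8.06% of its counts, against 7.02% to 7.32% in the other T288P wells and 6.69% to 7.73% in WT wells. With the other T288P wells, replicate 1 had a Pearson correlation of log2 CPM of 0.967 to 0.9699, and with WT wells of 0.9716 to 0.9749. T288P replicates 2 to 4 correlated at 0.9698 to 0.9764 with each other and at 0.9673 to 0.9739 with WT wells. Of 10662 genes with a T288P mean of at least 3 CPM (TMM-scaled counts per M counts), replicate 1 was over 2-fold above every other T288P well in 8 and over 2-fold below in 49. Results are therefore given with and without it, and its part in each difference was not tested beyond that.

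Markers of the culture were those of an epithelium with basal and luminal keratins. KRT5, a basal keratin, measured 2210 to 2610 CPM in T288P wells and 1850 to 2120 CPM in WT wells. CDH1, the epithelial cadherin, measured 325 to 353 CPM in T288P wells and 383 to 458 CPM in WT wells. Fibroblast markers summed to 8.84 to 15.9 CPM in T288P wells and 9.35 to 11.4 CPM in WT wells, with 5 of 9 (COL3A1, LUM, PDGFRA, PDGFRB and THY1) at 0 counts. Endothelial markers summed to 0.498 to 0.928 CPM in T288P wells and 0.618 to 1.37 CPM in WT wells, with CDH5 and CLDN5 at 0. Immune markers summed to 144 to 212 CPM in T288P wells and 146 to 213 CPM in WT wells, nearly all of it CD68. Adipocyte markers summed to 3.55 to 4.91 CPM in T288P wells and 3.48 to 5.53 CPM in WT wells, and ADIPOQ was at 0.

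PCSK5 itself was measured first, as the gene that the alleles replace. PCSK5 measured 26.4, 29.4, 56.5 and 38.7 CPM in T288P replicates 1 to 4, against 53.3, 37.3, 57.9 and 33.1 CPM in WT replicates 1 to 4. The wells overlapped over most of their range, with a log2 fold change of -0.27 (95% interval -0.97 to 0.43; edgeR adjusted p = 0.894). Reads of the introduced allele and of the disrupted gene are summed in these values, which also say nothing of the substitution. GDF11, the substrate, measured 4.60, 5.26, 7.10 and 6.02 CPM in T288P wells and 8.03, 5.64, 5.49 and 4.10 CPM in WT wells (log2 fold change -0.02, SE 0.20; edgeR adjusted p = 0.995). Of the other convertases, FURIN ranged from 32.4 to 38.7 CPM in T288P wells and from 33.5 to 44.0 CPM in WT wells, and PCSK6 from 8.94 to 9.76 CPM in T288P wells and from 8.23 to 10.1 CPM in WT wells. PCSK7 ranged from 11.1 to 21.4 CPM in T288P wells and from 11.6 to 13.5 CPM in WT wells, but 19.7% of its exon bases lie opposite TAGLN and another gene. None of these 5 genes was called in the fit of all 16 libraries, and PCSK7 was called higher in the fit without T288P replicate 1 and M452I replicate 4 described further on (log2 fold change 0.52; edgeR adjusted p = 0.0213).

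With all 8 wells, 7 of 16790 genes tested (0.0417%) were called at an adjusted p under 0.05, 2 higher in T288P (0.0119%) and 5 lower (0.0298%). The lower genes were PADI2, PADI1, PPL, MYH14 and LXN, and the higher genes were IL1B and TGFBI. An unadjusted p under 0.05 was reached by 1425 genes (8.49%), 662 higher (3.94%) and 763 lower (4.54%). In 847 genes (5.04%) the T288P wells did not overlap the WT wells, 353 with every T288P well higher (2.1%) and 494 with every T288P well lower (2.94%). The median log2 fold change of all genes tested was 0.02.

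**Figure D1:**
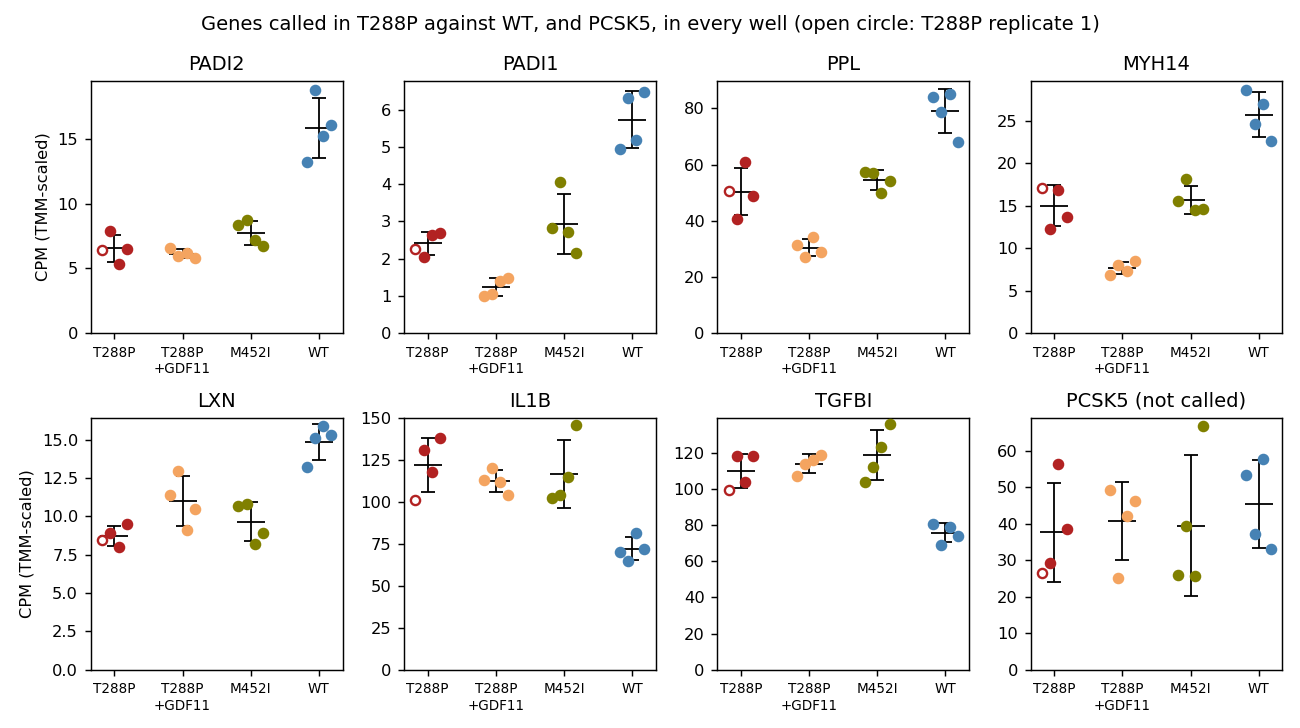
CPM (vertical axis, from 0) of the 7 called genes and of PCSK5 in each well of T288P, T288P+GDF11, M452I and WT, with the mean and SD of 4 wells as black bars and T288P replicate 1 as an open circle. In the 7 called genes every T288P well lies outside the range of the WT wells (PADI2 at 5.36 to 7.91 against 13.2 to 18.8 CPM), and in PCSK5 the wells overlap.

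The peptidylarginine deiminases, enzymes that convert arginine residues of proteins to citrulline, had the lowest log2 fold changes of the 7 called genes. PADI2 (chr1:17066761-17119435, minus strand) measured 6.41, 7.91, 5.36 and 6.47 CPM in T288P wells, against 13.2, 18.8, 15.2 and 16.1 CPM in WT wells. Every T288P well lay below every WT well, and replicate 1 lay among the other T288P wells. The mean was 6.53 ± 1.05 CPM in T288P and 15.8 ± 2.31 CPM in WT (SD, n = 4 wells each), a log2 fold change of -1.27 (SE 0.14; edgeR adjusted p = 0.000736). PADI1 (chr1:17205126-17246005, plus strand), an enzyme known from epidermis, measured 2.27, 2.04, 2.64 and 2.70 CPM in T288P wells, against 4.96, 6.31, 5.20 and 6.47 CPM in WT wells. Again no wells overlapped, with a log2 fold change of -1.25 (SE 0.22; edgeR adjusted p = 0.0386). PADI3 was too low to be tested, with 3, 8, 2 and 3 counts in T288P wells and 24, 20, 6 and 4 counts in WT wells. PADI4 and PADI6 had 0 counts in all 8 wells.

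PADI2 and PADI1 point away from each other on opposite strands, with 85.69 kb between the 2 genes. Within 500 kb of them, 9 other genes were tested, with log2 fold changes of -0.36 to 0.87, and 0 of the 9 had an unadjusted p under 0.05. SDHB, a subunit of succinate dehydrogenase and the nearest of them to PADI2, averaged 81.6 CPM in T288P and 84.2 CPM in WT (log2 fold change -0.05, SE 0.11). RCC2, a regulator of chromosome condensation on the PADI1 side, averaged 83.4 CPM in T288P and 79.8 CPM in WT (log2 fold change 0.06, SE 0.08).

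**Figure D2:**
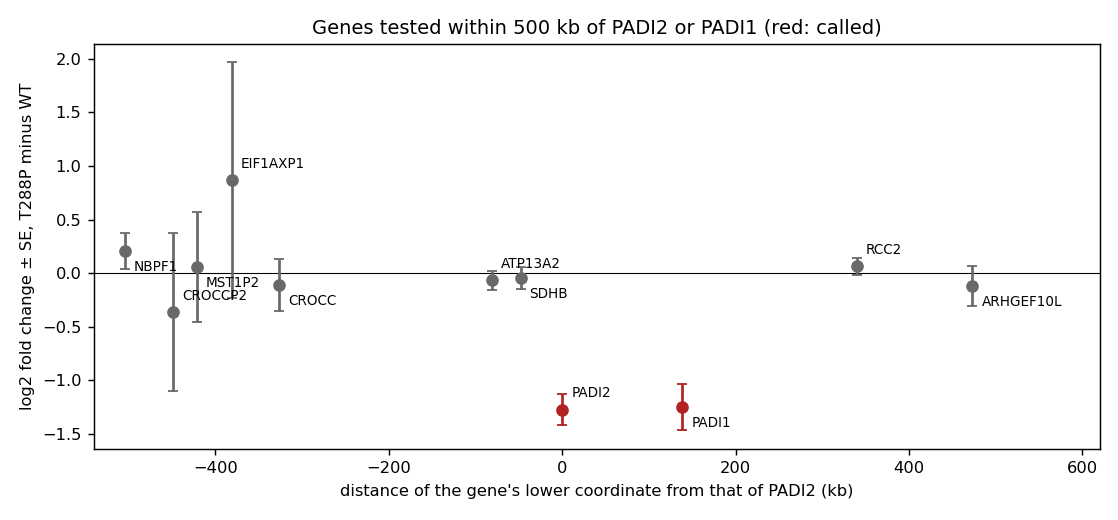
Log2 fold change of T288P over WT (vertical axis, bars are SE) of the 11 genes tested around PADI2 and PADI1, by the distance of each gene's lower coordinate from that of PADI2 in kb (horizontal axis). PADI2 (-1.27) and PADI1 (-1.25) lie below the other genes, whose values run from -0.36 to 0.87 with wide bars for the genes of low counts.

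Among proteins of the cell periphery and the cytoskeleton, PPL and MYH14 fell. PPL, the plakin periplakin of desmosomes and the cornified envelope (chr16:4882507-4960741), measured 50.7, 40.8, 61.1 and 48.8 CPM in T288P wells, against 84.1, 78.8, 85.0 and 68.0 CPM in WT wells. The highest T288P well, replicate 3, lay below the lowest WT well, replicate 4 (log2 fold change -0.65, SE 0.11; edgeR adjusted p = 0.0386). MYH14, the heavy chain of a nonmuscle myosin II (chr19:50188186-50310544), measured 17.1, 12.2, 16.9 and 13.7 CPM in T288P wells, against 28.6, 24.6, 27 and 22.6 CPM in WT wells. No wells overlapped, with a log2 fold change of -0.78 (SE 0.13; edgeR adjusted p = 0.0386). LXN, latexin, an inhibitor of carboxypeptidases (chr3:158645822-158672693), measured 8.48, 8.95, 8.00 and 9.52 CPM in T288P wells, against 13.2, 15.1, 15.9 and 15.3 CPM in WT wells. Its T288P wells lay close together and all below WT (log2 fold change -0.77, SE 0.13; edgeR adjusted p = 0.0386).

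Both genes that rose encode secreted proteins. IL1B, the cytokine interleukin-1 beta (chr2:112829751-112836903), measured 101, 131, 118 and 138 CPM in T288P wells, against 69.9, 65.0, 81.5 and 71.8 CPM in WT wells. The lowest T288P well was replicate 1, and it still lay above every WT well (log2 fold change 0.76, SE 0.12; edgeR adjusted p = 0.0329). Likewise TGFBI, a matrix protein induced by TGF-beta in many cells (chr5:136028895-136063818), measured 99.6, 118, 104 and 118 CPM in T288P wells, against 80.8, 69.2, 79.1 and 73.9 CPM in WT wells. Replicate 1 was again the lowest T288P well and again above WT (log2 fold change 0.54, SE 0.09; edgeR adjusted p = 0.0386).

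Leaving out 1 of the 8 wells at a time kept PADI2 called each time, with a highest edgeR adjusted p of 0.00831. PADI1 and LXN lost the call in each of the 8 fits (edgeR adjusted p up to 0.26 for PADI1 and 0.229 for LXN). PPL stayed called without T288P replicate 3 or WT replicate 4, MYH14 without T288P replicate 1 or WT replicate 4, IL1B without T288P replicate 1 or WT replicate 3, and TGFBI without T288P replicate 1. The directions of the 7 genes did not change in any of these fits.

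Comparisons of the study's other conditions with T288P or WT reuse the T288P or WT wells. Their values are therefore set beside this comparison, and nothing is drawn from their likeness. PADI2 averaged 6.14 ± 0.337 CPM in T288P+GDF11 and 7.74 ± 0.909 CPM in M452I (SD, n = 4 wells each), beside the T288P and WT means given above. Between T288P+GDF11 and T288P, PADI2 had a log2 fold change of -0.09 (edgeR adjusted p = 0.712). PADI1, PPL and MYH14 were lower in T288P+GDF11 than in T288P wells, at means of 1.23, 30.4 and 7.65 CPM in T288P+GDF11, with log2 fold changes of -0.97, -0.73 and -0.97 (edgeR adjusted p = 0.00856, 0.000562 and 0.000163). In that comparison of T288P+GDF11 with T288P, 2174 of 16790 genes (12.9%) were called, 851 higher (5.07%) and 1323 lower (7.88%). LXN averaged 11.0 CPM in T288P+GDF11 (log2 fold change against T288P 0.33; edgeR adjusted p = 0.0971), IL1B 112 CPM (-0.12; 0.534) and TGFBI 114 CPM (0.06; 0.723). In M452I, the means were 2.94 CPM for PADI1, 54.6 CPM for PPL, 15.7 CPM for MYH14, 9.66 CPM for LXN, 117 CPM for IL1B and 119 CPM for TGFBI. M452I against WT called 4 of 16790 genes (0.0238%). PADI2 and TGFBI were among the 4, with log2 fold changes of -1.03 and 0.65 (edgeR adjusted p = 0.00505 for both). For IL1B, MYH14, PPL, LXN and PADI1, M452I against WT gave log2 fold changes of 0.70, -0.71, -0.53, -0.62 and -0.96 (edgeR adjusted p = 0.05, 0.0744, 0.259, 0.259 and 0.333).

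Without T288P replicate 1, 16 of 17388 genes tested (0.092%) were called, 8 higher (0.046%) and 8 lower (0.046%). PADI2, IL1B, MYH14 and TGFBI were called both ways, 57.1% of the calls of all wells and 25% of those without replicate 1. PPL (edgeR adjusted p = 0.053), LXN (0.0615) and PADI1 (0.0672) missed the threshold without it. The other calls were MGP, BCL9L, SLC20A1, CAPN8, EGR1 and AHDC1, lower in T288P, and IL33, FHAD1, TXNIP, DKK1, KIFBP and CASP6, higher in T288P.

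**Figure D3:**
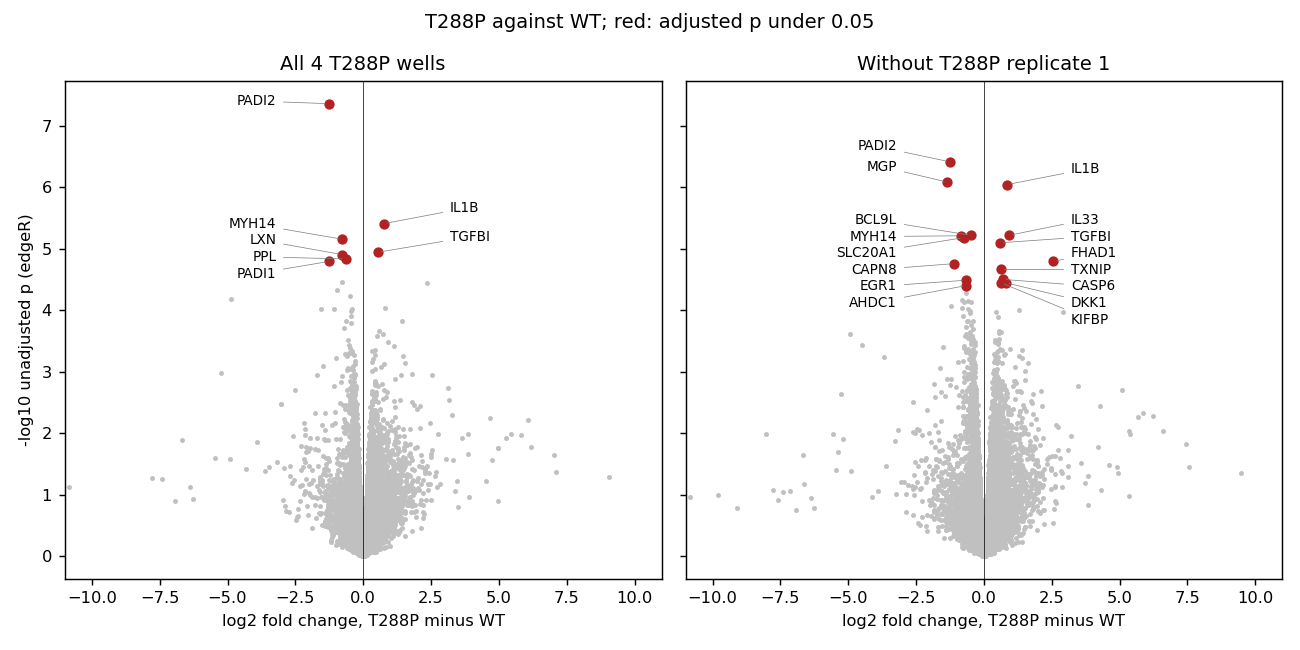
Log2 fold change of T288P over WT (horizontal axis) and the negative log10 of the unadjusted edgeR p (vertical axis) for each gene tested, with all 4 T288P wells on the left and without T288P replicate 1 on the right. Red points are the 7 and the 16 genes with an adjusted p under 0.05, and PADI2 has the smallest p in each panel.

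MGP, matrix Gla protein, an inhibitor of calcification, measured 6.54, 3.23, 3.41 and 3.56 CPM in T288P wells, against 8.00, 9.74, 9.11 and 7.96 CPM in WT wells. Every T288P well was lower than WT, and replicate 1 lay nearest to WT (log2 fold change -1.35 without it, edgeR adjusted p = 0.00526, and -1.06 with it, edgeR adjusted p = 0.1). IL33, a nuclear alarmin of the interleukin-1 family, measured 30.5, 51.2, 43.3 and 45.2 CPM in T288P wells, against 25.1, 21.5, 27.6 and 24.4 CPM in WT wells. No wells overlapped, and replicate 1 was the lowest T288P well (log2 fold change 0.93 without it; edgeR adjusted p = 0.0164). SLC20A1, a phosphate transporter, measured 101, 63.4, 79.2 and 72.4 CPM in T288P wells, against 114, 143, 113 and 113 CPM in WT wells. Its T288P wells all lay below WT (log2 fold change -0.75 without replicate 1; edgeR adjusted p = 0.0164).

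In TXNIP, DKK1 and EGR1, replicate 1 lay among the WT wells. TXNIP, an inhibitor of thioredoxin that responds to glucose, measured 1030, 1690, 1570 and 1670 CPM in T288P wells, against 1080, 1040, 1130 and 1020 CPM in WT wells. DKK1, a secreted Wnt antagonist, measured 34.5, 71.6, 63.9 and 58.9 CPM in T288P wells, against 42.1, 33.2, 41.9 and 32.9 CPM in WT wells. EGR1, an immediate early transcription factor, measured 117, 72.1, 88.9 and 68.0 CPM in T288P wells, against 126, 115, 133 and 115 CPM in WT wells. These 3 calls rest on replicates 2 to 4, with log2 fold changes of 0.63, 0.80 and -0.67 without replicate 1 (edgeR adjusted p = 0.0343, 0.0415 and 0.0415).

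The remaining new calls kept all T288P wells on 1 side of WT. BCL9L, a coactivator of beta-catenin, measured 97.7 to 123 CPM in T288P wells and 132 to 146 CPM in WT wells, and CAPN8, a calpain protease, 2.70 to 5.35 CPM in T288P wells and 7.18 to 9.22 CPM in WT wells. AHDC1, a nuclear protein with AT-hook motifs, ranged from 6.98 to 9.59 CPM in T288P wells and from 10.7 to 12.7 CPM in WT wells. KIFBP, a binding partner of kinesins, ranged from 29.5 to 38.8 CPM in T288P wells and from 22.8 to 27.3 CPM in WT wells. CASP6, an executioner caspase, ranged from 10.6 to 16.1 CPM in T288P wells and from 7.74 to 10.1 CPM in WT wells, and FHAD1 from 1.45 to 3.77 CPM in T288P wells and from 0.286 to 0.748 CPM in WT wells. Their log2 fold changes without replicate 1 were -0.47 for BCL9L, -1.10 for CAPN8, -0.66 for AHDC1, 0.62 for KIFBP, 0.70 for CASP6 and 2.56 for FHAD1.

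The count also depended on which libraries shared the estimate of the spread. A fit of only T288P and WT libraries without T288P replicate 1, chosen after seeing the data, called 392 of 15999 genes (2.45%), 126 higher (0.788%) and 266 lower (1.66%), the 7 genes of the first fit among them. In 182 of the 392, T288P replicate 1 lay within the range of the WT wells, and in 168 it lay on the other side of the WT mean from the called direction. Those 168 calls thus have a direction that 3 T288P wells show and the remaining one does not. Entries without a gene symbol had some of the smallest adjusted p of that fit. The most abundant of them measured 1740, 1010, 1120 and 999 CPM in T288P wells, against 1800, 1690, 1870 and 1660 CPM in WT wells (log2 fold change -0.75; edgeR adjusted p = 0.000619). Replicate 1 lay within the WT range there too, and the cause was not tested. With all 8 wells and no other library, 10 of 15448 genes (0.0647%) were called, 3 higher (0.0194%) and 7 lower (0.0453%). IL1B, LXN, PADI1, PADI2 and TGFBI were among these 10, and PPL (edgeR adjusted p = 0.071) and MYH14 (edgeR adjusted p = 0.0506) were not. M452I replicate 4 also stood apart from its group (37.5 on the first principal component, against -44.7 to -32.9 in the other M452I wells). A fit of the libraries other than it and T288P replicate 1, again chosen after seeing the data, called 698 genes (4.06%), 291 higher (1.69%) and 407 lower (2.36%). With the share of counts in ribosomal protein genes as a covariate and all wells kept, 286 genes (1.7%) were called, 128 higher (0.762%) and 158 lower (0.941%).

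Of the genes outside the calls, those with the smallest unadjusted p and no overlap between wells were looked at next. GABRP, a subunit of the GABA-A receptor found in breast epithelium, measured 11.4, 8.43, 10.3 and 12.3 CPM in T288P wells, against 17.9, 17.9, 20.9 and 16.4 CPM in WT wells (log2 fold change -0.79; edgeR adjusted p = 0.0668). LIMCH1, an activator of nonmuscle myosin II, measured 16.4 to 20.3 CPM in T288P wells and 23.2 to 26.6 CPM in WT wells (edgeR adjusted p = 0.0886). Neither gene passed the threshold with all wells. SERPINB7, an epithelial serpin, measured 6.79 to 9.18 CPM in T288P wells and 4.03 to 5.36 CPM in WT wells. MIR205HG, the host transcript of an epithelial microRNA, measured 905 to 975 CPM in T288P wells and 704 to 793 CPM in WT wells. TUBA4A, an alpha-tubulin, measured 67.2 to 73.7 CPM in T288P wells and 55.2 to 58.2 CPM in WT wells, with 15.4% of its exon bases opposite STK16. REXO2, a mitochondrial oligoribonuclease, measured 24.4 to 30.4 CPM in T288P wells and 16.1 to 22.3 CPM in WT wells, and MRFAP1L2 measured 4.64 to 6.37 CPM in T288P wells and 1.95 to 3.28 CPM in WT wells. For SERPINB7, MIR205HG, TUBA4A, REXO2 and MRFAP1L2, the edgeR adjusted p with all wells was 0.168, 0.263, 0.229, 0.229 and 0.205. None of them passed the threshold either. The genes named here were taken from the 847 without overlap and are no sample of all genes.

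The genes of the pathway that PCSK5 feeds, and of other pathways, were counted as lists. Counts of members called, and of members with an unadjusted p under 0.05, come from the fit of all 16 libraries unless another is named. Over all genes tested, 4.54% had an unadjusted p under 0.05 and were lower, 3.94% were higher, and 7817 of 16790 had a negative log2 fold change. The fit of only T288P and WT libraries without replicate 1 called 1.66% of all its genes lower and 0.788% higher. Those shares stand beside every call of that fit named below. Of the genes named below from that fit, only EGR1 was also among the 16 calls made when T288P replicate 1 alone was left out. In that fit with the other groups kept, the edgeR adjusted p was 0.108 for SMAD3, 0.108 for MYH9 and 0.115 for ELF3. Of 28 tested SMAD2/3 targets, 1 was called (TGFBI, higher), 1 reached an unadjusted p under 0.05 in each direction, and the median log2 fold change was -0.08. SKIL, a SMAD target and feedback repressor, measured 96.1, 96.7, 108 and 74.7 CPM in T288P wells and 134, 106, 131 and 90.2 CPM in WT wells (edgeR adjusted p = 0.612). FN1, fibronectin, measured 47.7 to 93.3 CPM in T288P wells and 66.2 to 113 CPM in WT wells, which overlap. In T288P+GDF11 wells FN1 averaged 293 CPM, a log2 fold change of 2.08 against T288P wells (edgeR adjusted p = 7.92e-05). Of 16 SMADs and feedback inhibitors, 0 were called and 2 had an unadjusted p under 0.05, both lower. SMAD3, the receptor-regulated SMAD of this pathway, measured 134, 116, 126 and 121 CPM in T288P wells, against 163, 157, 153 and 141 CPM in WT wells (log2 fold change -0.31; edgeR adjusted p = 0.251). SMURF1, a ubiquitin ligase for SMADs and receptors, measured 175, 123, 133 and 116 CPM in T288P wells, against 192, 193, 156 and 179 CPM in WT wells (edgeR adjusted p = 0.5). SMAD3 wells did not overlap, and SMURF1 wells overlapped through T288P replicate 1. In the fit of only T288P and WT libraries without replicate 1, 3 of the 16 were called lower, beside 1.66% of all genes. They were SMAD3 (edgeR adjusted p = 0.0299), SMURF1 (0.00891) and TGIF1, a SMAD corepressor (0.0454). For TGIF1, replicate 1 lay above the WT mean, at 56.6 CPM in T288P replicate 1 and 50.5 to 58.6 CPM in WT wells. Of 11 receptors of the family, 1 had an unadjusted p under 0.05, lower, and of 9 BMP targets 0 had.

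Proteins that hold epithelial cells together were counted next. Of 17 tight junction genes tested, 5 had an unadjusted p under 0.05 in the lower direction, beside 4.54% of all genes, and 15 of 17 had a negative log2 fold change (median -0.18, against 0.02 for all genes). None of the 17 was called in the fit of all 16 libraries. OCLN, the tight junction membrane protein occludin, measured 37.2, 28.9, 29.6 and 26.4 CPM in T288P wells, against 42.2, 46.0, 33.6 and 41.8 CPM in WT wells. CGN, cingulin, measured 2.30 to 3.15 CPM in T288P wells and 3.40 to 5.92 CPM in WT wells. OCLN wells overlapped through replicate 1, and CGN wells did not overlap. In the fit of only T288P and WT libraries without replicate 1, OCLN and CLDN4, a claudin, were called lower (log2 fold change -0.52 and -0.53; edgeR adjusted p = 0.0236 and 0.0201). CLDN4 measured 236, 144, 177 and 146 CPM in T288P wells, against 219, 253, 194 and 238 CPM in WT wells, so its call rests on replicates 2 to 4, and replicate 1 lay above the WT mean.

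Of 12 adherens junction genes, 3 had an unadjusted p under 0.05, all lower (4.54% of all genes), and 11 of 12 had a negative log2 fold change, as had 7817 of 16790 genes (median -0.14). CDH1 had a log2 fold change of -0.28 (SE 0.08; edgeR adjusted p = 0.37), with no overlap between T288P and WT wells. NECTIN4, a nectin adhesion protein, measured 39.3, 25, 25.7 and 27 CPM in T288P wells, against 40.5, 51.6, 35.3 and 49.3 CPM in WT wells. Only replicate 1 of the T288P wells lay in the WT range, and NECTIN4 was called lower in the fit of only T288P and WT libraries without it (edgeR adjusted p = 0.00886). Of 11 desmosome genes, 2 had an unadjusted p under 0.05, both lower, and 10 of 11 had a negative log2 fold change. DSP, desmoplakin, measured 776 to 922 CPM in T288P wells and 923 to 1100 CPM in WT wells, so that the groups met without crossing. DSG3, a desmosomal cadherin, measured 687 to 780 CPM in T288P wells and 780 to 953 CPM in WT wells, which overlapped at the edge.

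Of 28 actomyosin genes, 1 was called (MYH14, lower) and 3 had an unadjusted p under 0.05, all lower. MYH9, the major nonmuscle myosin II heavy chain, measured 563, 432, 523 and 476 CPM in T288P wells, against 643, 600, 624 and 608 CPM in WT wells (log2 fold change -0.31; edgeR adjusted p = 0.341). ACTN4, an actin crosslinker, measured 535 to 624 CPM in T288P wells and 639 to 677 CPM in WT wells, with 14.2% of its exon bases opposite CAPN12. Both genes had every T288P well below every WT well, and MYH9 was called lower in the fit of only T288P and WT libraries without replicate 1 (log2 fold change -0.37; edgeR adjusted p = 0.0241).

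Of 17 tested genes of the cornified envelope and periplakin family, 1 was called (PPL, lower), 3 had an unadjusted p under 0.05 in the lower direction and 1 in the higher direction. KRT80, an epithelial keratin outside the calls and from the separate list of stress keratins, measured 5.12, 2.08, 5.43 and 3.44 CPM in T288P wells, against 10.6, 7.74, 8.86 and 6.47 CPM in WT wells (log2 fold change -1.07, SE 0.29; edgeR adjusted p = 0.33). Of the 8 stress keratins, 1 had an unadjusted p under 0.05, lower (4.54% of all genes), and the median was -0.06. SPINK5, a protease inhibitor of stratified epithelia, measured 5.52, 8.36, 5.36 and 7.55 CPM in T288P wells, against 4.64, 4.94, 4.72 and 4.71 CPM in WT wells (edgeR adjusted p = 0.421). Small proline-rich proteins had 0 of 7 members with an unadjusted p under 0.05, with a median of 0.08 with all wells and -0.13 without replicate 1, and reads can be shared between these similar genes.

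Of 10 luminal genes tested, 3 had an unadjusted p under 0.05, all lower (4.54% of all genes), and 9 of 10 had a negative log2 fold change, as had 7817 of 16790 genes. The median was -0.16 with all wells and -0.36 without T288P replicate 1. On the scale of mean log2 CPM relative to the WT mean, the list lay at -0.02, -0.36, -0.35 and -0.36 in T288P replicates 1 to 4, so replicate 1 was level with WT. ELF3, an epithelial ETS factor, measured 67.7, 38.5, 49.8 and 43.3 CPM in T288P wells, against 76.5, 81.1, 69.2 and 73.8 CPM in WT wells. KRT8, a luminal keratin whose exons overlap those of KRT18 by 7.63%, measured 708, 406, 405 and 389 CPM in T288P wells, against 615, 823, 558 and 751 CPM in WT wells. Replicate 1 lay just below WT for ELF3 and within WT for KRT8. ELF3 and KRT8 were called lower in the fit of only T288P and WT libraries without replicate 1, with log2 fold changes of -0.77 and -0.77 (edgeR adjusted p = 0.00205 and 0.00956). FOXA1 and GATA3, transcription factors of luminal cells, measured 9.37 to 11.4 and 5.45 to 7.6 CPM in T288P wells, and 12.6 to 14.4 and 7.76 to 8.97 CPM in WT wells, without overlap.

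Basal genes were mixed, with 1 of 16 at an unadjusted p under 0.05 in each direction. KRT5 had a log2 fold change of 0.24 (edgeR adjusted p = 0.474) and KRT15, a basal keratin, of -0.33 (edgeR adjusted p = 0.337). KRT14 measured 60.6 to 97.7 CPM in T288P wells and 53.8 to 82.5 CPM in WT wells, and VIM, vimentin, 783 to 870 CPM in T288P wells and 730 to 812 CPM in WT wells. Both overlapped between the alleles. In the fit of only T288P and WT libraries without replicate 1, KRT15 was called lower (edgeR adjusted p = 0.0391).

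**Figure D4:**
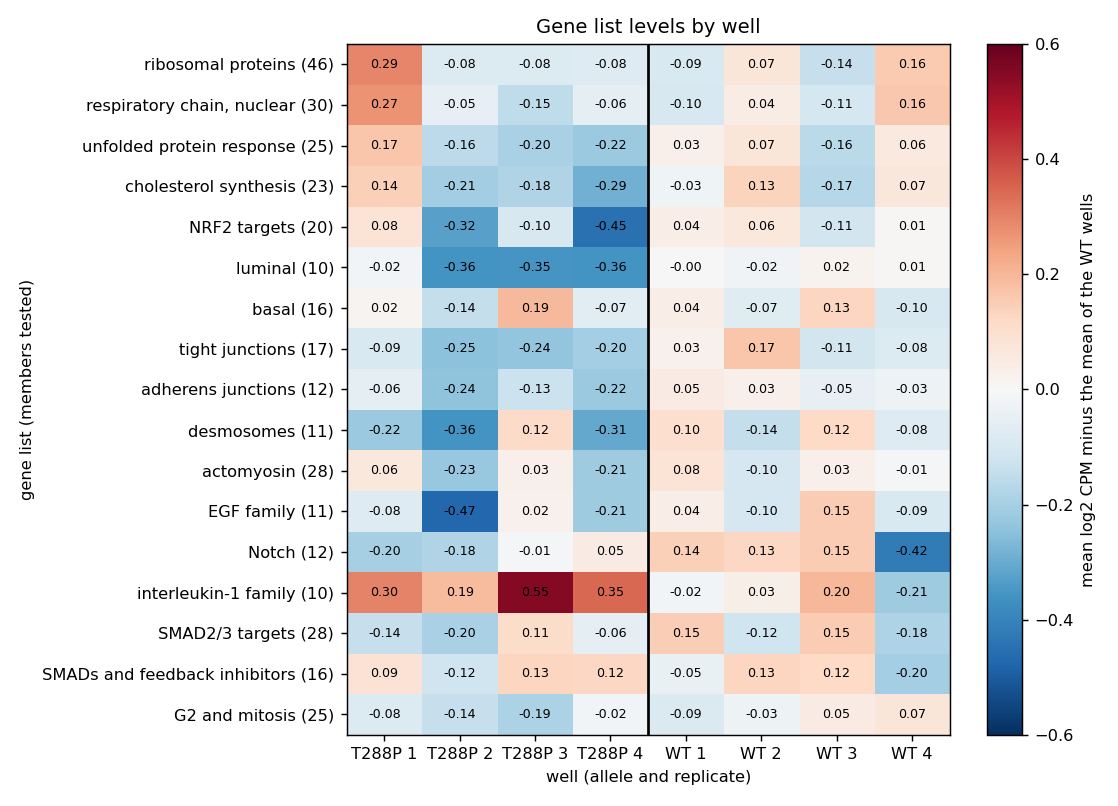
Mean log2 CPM of 17 gene lists in each T288P and WT well, relative to the mean of the WT wells (colour and printed values, log2 units), with the number of genes tested in brackets. The luminal list lies at -0.36 to -0.35 in T288P replicates 2 to 4 and at -0.02 in replicate 1, while the ribosomal list lies at 0.29 in replicate 1.

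The interleukin-1 family was the one with the highest median among the lists of at least 5 tested genes, at 0.18. Of 10 members, 1 was called (IL1B) and 3 had an unadjusted p under 0.05, all higher, beside 3.94% of all genes. IL1A, the alpha form, measured 633, 621, 708 and 651 CPM in T288P wells, against 590, 481, 638 and 562 CPM in WT wells (edgeR adjusted p = 0.574). IL1B, IL33 and IL1A thus had T288P means above WT, and IL1A wells overlapped. Without replicate 1, IL1B and IL33 were called. CXCL3, a neutrophil chemokine, measured 9.30, 16.4, 13.5 and 13.2 CPM in T288P wells, against 9.78, 8.21, 12.3 and 9.95 CPM in WT wells. Its list of 13 chemokines and cytokines had 1 member higher and 2 lower at an unadjusted p under 0.05. LCN2, lipocalin-2, measured 6.33 to 7.64 CPM in T288P wells and 3.90 to 5.66 CPM in WT wells. It comes from the NF-kB feedback list, where 1 of 19 was higher and 3 were lower at that threshold (median -0.09). Of all genes, 3.94% were higher and 4.54% lower. LIF, a cytokine related to interleukin-6, measured 39.4, 38.5, 37.7 and 45.7 CPM in T288P wells, against 49.2, 53.9, 59.9 and 55.0 CPM in WT wells (log2 fold change -0.44; edgeR adjusted p = 0.128).

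Of 11 genes of the EGF family and its receptors, 3 had an unadjusted p under 0.05, all lower. EREG, the ligand epiregulin, measured 191, 146, 177 and 128 CPM in T288P wells, against 228, 210, 266 and 201 CPM in WT wells (log2 fold change -0.50; edgeR adjusted p = 0.228). ERBB2, a receptor of the family, measured 24.4 to 30.1 CPM in T288P wells and 32.4 to 34.7 CPM in WT wells, and ERBB3 50.5 to 58.9 CPM in T288P wells and 60.9 to 71.3 CPM in WT wells. None of the 3 genes overlapped between alleles. In the fit of only T288P and WT libraries without replicate 1, EREG (edgeR adjusted p = 0.0267) and HBEGF, another ligand (0.0348), were called lower, with replicate 1 above the WT mean for HBEGF. Of 12 Notch genes, 3 had an unadjusted p under 0.05, all lower. NOTCH3, a Notch receptor, measured 12.6, 8.82, 11.9 and 13.7 CPM in T288P wells, against 22.5, 19.0, 21 and 14 CPM in WT wells (log2 fold change -0.71; edgeR adjusted p = 0.147). NOTCH1 measured 18.9 to 21.7 CPM in T288P wells and 24.7 to 28.7 CPM in WT wells. Immediate early genes had 2 of 13 with an unadjusted p under 0.05, both lower, and the lowest median of the lists with at least 5 tested genes, -0.20. In the fit of only T288P and WT libraries without replicate 1, EGR1, JUND and ZFP36 were called lower, with replicate 1 above every WT well for JUND.

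The counts of stress and metabolic lists differed with and without T288P replicate 1. Of 20 NRF2 targets, 1 had an unadjusted p under 0.05 with all wells and 7 without replicate 1, all lower, where the share of all genes was 5.94% lower and 6.68% higher. The median was -0.13 with all wells and -0.25 without replicate 1. HMOX1, heme oxygenase, measured 67.6, 23.1, 21.6 and 21.7 CPM in T288P wells, against 57.2, 82.6, 51.6 and 78.8 CPM in WT wells. NQO1, a quinone reductase, measured 137, 99.6, 105 and 108 CPM in T288P wells, against 125, 119, 137 and 135 CPM in WT wells. Replicate 1 lay within the WT wells for HMOX1 and at their upper edge for NQO1, and the other T288P wells lay below WT for both genes. SLC7A11, the cystine transporter, measured 65.7, 53.2, 48.5 and 39.0 CPM in T288P wells, against 71.0, 73.7, 72.7 and 65.1 CPM in WT wells. In the fit of only T288P and WT libraries without replicate 1, HMOX1 (log2 fold change -1.60), SLC7A11 (-0.58) and GCLM, a subunit of an enzyme of glutathione synthesis (-0.44), were called lower (edgeR adjusted p = 0.00314, 0.0108 and 0.0454). GCLM measured 67.3, 52.4, 42.4 and 36.8 CPM in T288P wells, against 58.6, 60.9, 57.3 and 62.3 CPM in WT wells. Replicate 1 lay above every WT well for GCLM, opposite to the other T288P wells.

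Of 23 genes of the cholesterol list, 1 had an unadjusted p under 0.05 with all wells (4.54% of all genes lower) and 6 without replicate 1 (5.94%), all lower. INSIG1, a sterol sensor, measured 531, 261, 304 and 257 CPM in T288P wells, against 465, 544, 375 and 504 CPM in WT wells. Replicates 2 to 4 lay below every WT well, and replicate 1 lay in the WT range. INSIG1, MSMO1 and SREBF2 were called lower in the fit of only T288P and WT libraries without replicate 1 (log2 fold changes -0.78, -0.41 and -0.29; edgeR adjusted p = 0.00757, 0.0457 and 0.0458). MSMO1, an enzyme of sterol synthesis, measured 1220, 808, 745 and 694 CPM in T288P wells, against 1020, 1090, 819 and 1080 CPM in WT wells. SREBF2, the transcription factor of the pathway, measured 224, 169, 187 and 186 CPM in T288P wells, against 225, 230, 212 and 223 CPM in WT wells. Replicate 1 lay above every WT well for MSMO1 and within the WT wells, above their mean, for SREBF2. THBS1, a SMAD target, and CDC20, a mitotic activator, were called in the same fit, THBS1 higher (log2 fold change 0.54; edgeR adjusted p = 0.0235) and CDC20 lower (log2 fold change -0.62; edgeR adjusted p = 0.00531). THBS1 measured 162, 359, 356 and 390 CPM in T288P wells, against 263, 221, 311 and 222 CPM in WT wells, and CDC20 131, 66.1, 71.9 and 63.5 CPM in T288P wells, against 104, 104, 89.7 and 116 CPM in WT wells. In both, replicate 1 lay beyond the WT wells on the side opposite to the other T288P wells.

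Of 25 genes of G2 and mitosis, 2 had an unadjusted p under 0.05 with all wells (4.54% of all genes lower) and 7 without replicate 1 (5.94%), all lower. With all wells, 22 of 25 had a negative log2 fold change. The median was -0.13 with all wells and -0.06 without replicate 1. TOP2A, topoisomerase II alpha, measured 146, 122, 117 and 137 CPM in T288P wells, against 147, 148, 148 and 164 CPM in WT wells. MKI67, a marker of cycling cells, measured 52.2 to 63.3 CPM in T288P wells and 64.3 to 82.3 CPM in WT wells (edgeR adjusted p = 0.565). Of 25 DNA replication genes, 1 had an unadjusted p under 0.05, higher, with a median of 0.03. Ribosomal protein genes had 0 of 46 with an unadjusted p under 0.05. On the scale of mean log2 CPM relative to WT they lay at 0.29, -0.08, -0.08 and -0.08 in T288P wells and at -0.09, 0.07, -0.14 and 0.16 in WT wells.

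With the share of counts in ribosomal protein genes as a covariate and all wells kept, other members of these lists were called. Those lower were CLDN4 and F11R of the tight junction list, CDH1 and NECTIN4 of the adherens list, MYH9 and ACTB of the actomyosin list, and ELF3 and KRT8 of the luminal list. SMAD3, EREG, ERBB2, NOTCH3, KRT15, KRT80, HMOX1 and FDFT1, an enzyme of sterol synthesis, were also lower in that fit. KRT5, IL33 and TP63, the transcription factor of basal cells, were higher in it. The edgeR adjusted p was 0.0264 for SMAD3, 0.0335 for CDH1, 0.0319 for MYH9, 0.00663 for KRT8 and 0.0259 for KRT5. Of all genes tested, the fit with the covariate called 0.941% lower and 0.762% higher.

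**Figure D5:**
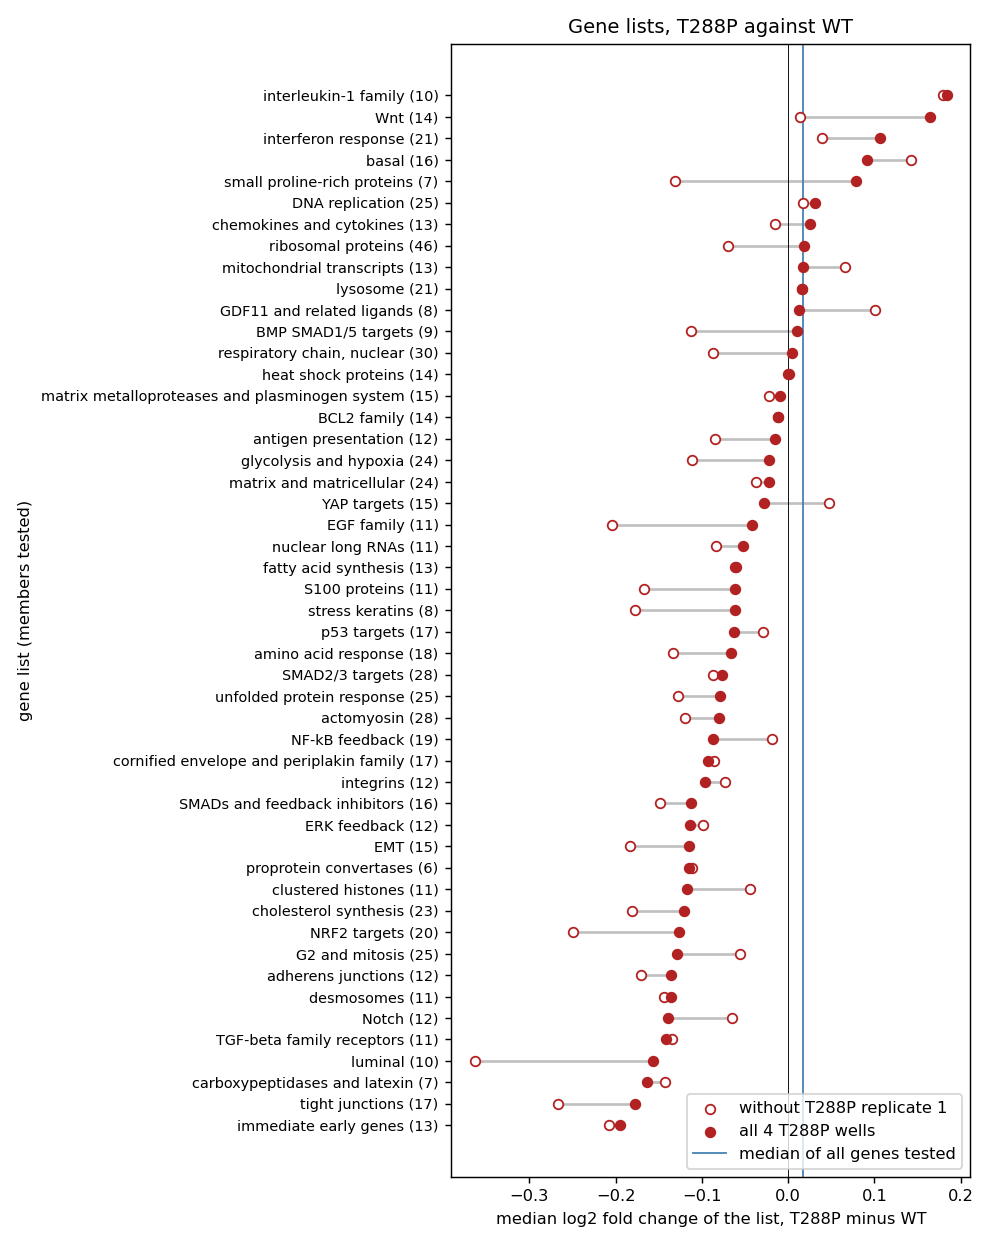
Median log2 fold change of T288P over WT (horizontal axis) of each gene list with at least 5 tested genes, with all wells (filled) and without T288P replicate 1 (open), and the median of all genes tested as a blue line. The interleukin-1 family has the highest median with all wells (0.18), and the luminal list has the lowest without replicate 1 (-0.36, beside -0.16 with all wells).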

How the data were processed

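Poly(A)-selected RNA of 16 wells, 4 for each of 4 conditions, was sequenced as read pairs. Values are the authors' counts for 78894 genes, deposited as whole numbers without normalization. HISAT2 (version not given), StringTie 2.2.1 and build GRCh38 are named, per the submitters' processing notes. How reads were counted, and with which strand setting, is not given in the sources used here, so reads where genes overlap are ambiguous. Exon bases (GENCODE 29) overlap an antisense tested gene in 19 of 82 genes described and a same-strand one in 3. Columns were matched to samples by name, and 0 columns were left unused.

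Tests ran in R 4.3.3 with edgeR 4.0.16: TMM normalization, filterByExpr with a minimum count of 10, robust quasi-likelihood F test, 1 model of all 16 libraries without covariates. Benjamini-Hochberg adjustment ran over the 16790 genes tested, which held 99.91% to 99.94% of the counts of these 8 libraries. SE was taken as |log2 fold change|/√F. CPM values are scaled with the TMM factors, and log2 CPM by well used a prior count of 2. A difference is T288P minus WT. Alternatives were DESeq2 1.42.0, limma-voom (limma 3.58.1), RLE normalization, other filters, other sets of libraries, a minimum fold change of 2, a replicate block, and a covariate for the ribosomal protein share. The pipeline was tested on simulated data.

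The comparison, the 56 gene lists and the members described were chosen with earlier results of these data known. The rule for named genes took PCSK5, GDF11, FURIN, PCSK6, every called gene with or without T288P replicate 1, the 10 higher and 10 lower non-overlapping genes with the smallest unadjusted p and a mean of at least 3 CPM, up to 3 members per list by unadjusted p, and 6 marker genes. CLDN4, THBS1, GCLM, MSMO1, CDC20, TGIF1, F11R, HBEGF, JUND, ACTB, TP63 and FDFT1 lie outside it and were named after their values were seen. A few further genes meeting it are not reported here. Counts of every pair of wells of 1 allele differed by more than sampling noise, so all 8 libraries were kept as separate.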

Additional observations from a re-analysis of the deposited data

Results flagged for a closer look

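Of 176 sets of 4 wells examined, 15 had a well far from the other 3. Chance flags about 1 in 20 sets that were not chosen, but many of these genes were named because T288P replicate 1 differed or because of fits without it, so that rate does not apply to them. T288P replicate 1 was that well in 12 of the 15. It scored -43 on the first principal component, against 2.14 to 8.81 in the other T288P wells. It was high for MGP at 6.54 CPM (3.23 to 3.56 in the other T288P wells), BCL9L at 123 CPM (97.7 to 102), AHDC1 at 9.59 CPM (6.98 to 7.31), KRT8 at 708 CPM (389 to 406) and NECTIN4 at 39.3 CPM (25 to 27). It was also high for HMOX1 at 67.6 CPM (21.6 to 23.1), INSIG1 at 531 CPM (257 to 304), FDFT1 at 756 CPM (491 to 531) and CDC20 at 131 CPM (63.5 to 71.9). It was low for KIFBP at 29.5 CPM (38.3 to 38.8) and THBS1 at 162 CPM (356 to 390).

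T288P replicate 4 was high for REXO2 at 30.4 CPM (24.4 to 25.4 in the other T288P wells). Among WT wells, replicate 2 was high for SLC20A1 at 143 CPM (113 to 114 in the others) and replicate 4 for TOP2A at 164 CPM (147 to 148).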

How the results depend on the processing

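The count of 7 called genes was 9 with limma-voom, 7 with RLE normalization, 7 with a filter of at least 50 counts in 4 libraries and 10 with only the T288P and WT libraries. It was 91 with DESeq2 (25 higher, 66 lower), 11 without a low-count filter, 2 at a fold change of at least 2 and 286 with a covariate for the ribosomal protein share (1.7%; 128 higher, 158 lower). Leaving out 1 library gave 1 to 16 calls, lowest without T288P replicate 2, T288P replicate 4, WT replicate 1 or WT replicate 2 and highest without T288P replicate 1; it gave 2 without T288P replicate 3 and 3 without WT replicate 3 or WT replicate 4. Added after seeing the data, fits gave 698 calls without both T288P replicate 1 and M452I replicate 4 (4.06%; 291 higher, 407 lower), 392 with only T288P and WT libraries without T288P replicate 1, and 14 without the M452I libraries. The share of calls that were higher was 28.6% with all wells, 50% without T288P replicate 1 and 44.8% with the covariate. With the replicate number as a block 1 gene (PADI2) was called. Once the mean of each group was taken out, correlations of T288P with WT wells ran from -0.03 to 0.12 for the same number. They ran from -0.15 to 0.12 for different numbers. On that measure, T288P replicates 2 and 3 correlated best with the WT well of their own number, and replicates 1 and 4 did not. So few wells cannot show whether wells of the same number were handled together. GDF11 changed sign, with log2 fold changes of 0.0013 with the block, 0.048 with the covariate, 0.072 without both outlying libraries, 0.079 with only T288P and WT libraries without T288P replicate 1, and -0.15 to 0.18 over the fits that left out 1 well (above 0 without T288P replicate 1, T288P replicate 2 or WT replicate 1). PCSK6 ran from -0.013 without WT replicate 3 to 0.087 without WT replicate 1. The cause was not tested. With 4 wells per allele, the interval of PCSK5 (-0.97 to 0.43) is the range of fold changes that the spread between wells leaves possible.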
